A study of Caenorhabditis elegans with 8 samples.

Results

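The genotype by cadmium interaction is the difference between 2 cadmium effects, that in the hizr-1 mutant minus that in the wild type, and all 8 of the 8 libraries of the series enter it. The libraries are RNA of whole C. elegans. The am286 groups carry a loss-of-function allele of hizr-1 in a strain derived from N2, and the N2 groups are the wild-type strain. In each genotype 1 group was held for 16 to 18 h at 20 °C on minimal agar with cadmium chloride, at 100 mM as the labels write it, and 1 group on the same medium at 0 mM. The dose unit could not be checked, and 100 mM is far above the doses usual for this animal. All groups were fed concentrated E. coli OP50 and began as mixed-stage populations grown for 4 days from 3 L4 hermaphrodites a plate. Each group has 2 samples of 10 pooled plates grown in parallel, so stages, sexes and tissues are mixed and p-values measure the spread between parallel pools.

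HIZR-1 is a nuclear hormone receptor that zinc activates. With the Mediator subunit MDT-15 it switches on genes whose products bind, store or export zinc, mainly in the gut. Cadmium resembles zinc chemically and is toxic, and the series asks whether it acts through this receptor. The interaction sets the 2 genotypes' responses against each other gene by gene. A gene induced in N2 and not in am286 has a difference far below 0.

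Total counts were 17681352 to 29586507 a library, and 3 counts, taken as the floor for a gene not seen, were 0.101 to 0.17 per library total on the CPM scale (the count scaled to library size). The targeted gene matched its labels in every library. On the CPM scale hizr-1 (chromosome X, 11318278 to 11321076) had 0.643 and 0.928 in am286 with cadmium and 0.703 and 0.382 in am286 without it, against 3.45 and 3.45 in N2 with cadmium and 2.03 and 2.47 in N2 without it. Its own difference of effects was -0.17 ± 0.531 with a 95% interval of -1.33 to 0.98, too wide to say whether its level responds alike in both genotypes. All differences are log2 values with their SE, tested with edgeR's quasi-likelihood test over all genes with Benjamini-Hochberg adjustment at 0.05. The markers of intestine (17 genes), muscle (18), neurons (19) and oocytes (25) were all detected.

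The interaction passed at 18 of 15818 genes tested, which is 0.114%. Cadmium acted less positively in am286 than in N2 at 17 of them (0.107%) and more positively at 1 (0.00632%). The 17 are 2 metallothionein genes, the cadmium-responsive gene cdr-1, the zinc transporter gene cdf-2, 4 cytochrome P450 genes, 2 UDP-glycosyltransferase genes, both carotenoid oxygenase genes, 2 protease-related genes (cpr-1 and hrg-7), the infection response gene irg-4, the thaumatin-like gene thn-2 and T16G1.6. The 1 is cth-1, a gene of cysteine synthesis. Cadmium raised 4 genes (0.0253%) and lowered 1 (0.00632%) in am286, and raised 37 (0.234%) and lowered 8 (0.0506%) in N2. At an unadjusted p under 0.05 the interaction held 513 genes (3.24%), fewer than the 791 that the threshold alone would give. The cadmium effects share their libraries with the interaction, so they are given beside it as its parts and not as separate evidence.

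**Figure D1:**
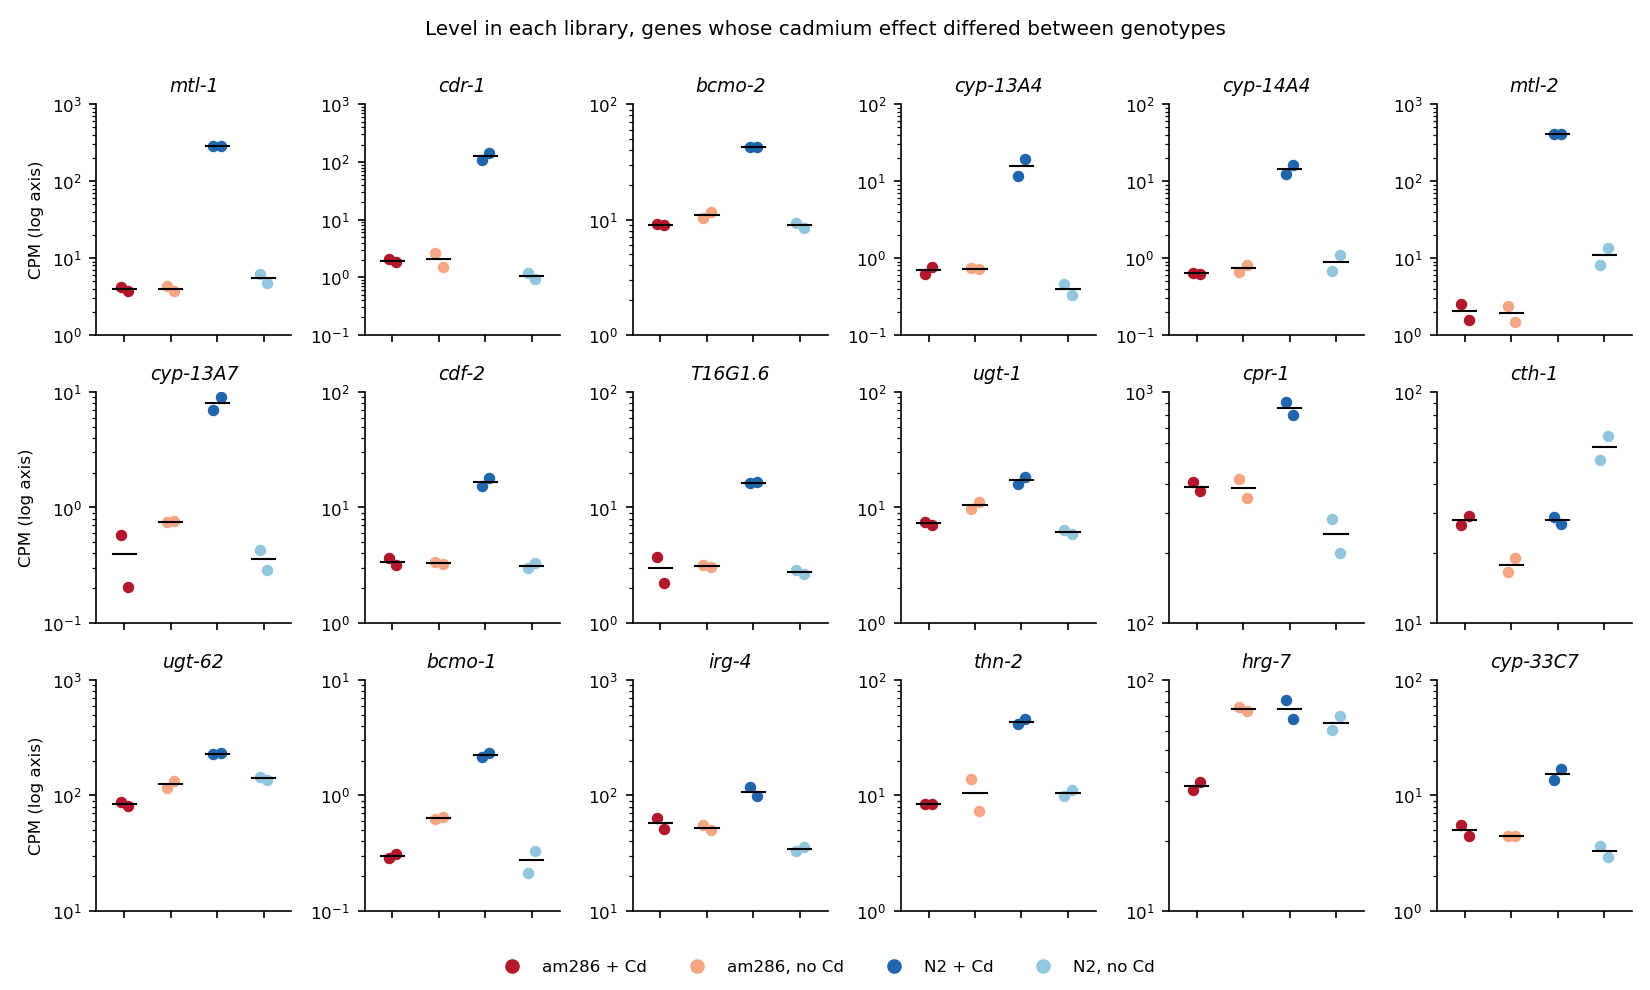
CPM (log axis) of the 18 genes whose cadmium effect differed between the genotypes, 1 panel a gene; points are the 2 libraries of a group and the bar is their mean. In 16 panels the N2 cadmium libraries stand above the other 6; the exceptions are hrg-7, where the am286 cadmium libraries stand below, and cth-1, where N2 without cadmium stands above.

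The metal-handling genes include the gene with the largest difference in size among the 18, cdr-1. Metallothioneins are small cysteine-rich proteins that bind zinc and cadmium. On the CPM scale mtl-1 (chromosome V, 6691369 to 6691863) had 4.24 and 3.71 in am286 with cadmium and 4.30 and 3.71 without it, against 282.5 and 289.8 in N2 with cadmium and 6.20 and 4.74 without it. The 2 N2 cadmium libraries thus stood alone, and the am286 values did not separate by cadmium. The difference was -5.71 ± 0.256 (adjusted p = 3.92e-07). For mtl-2 (chromosome V, 14018272 to 14018643) the CPM values were 2.51 and 1.55 in am286 with cadmium and 2.38 and 1.48 without it, against 410.9 and 414.4 in N2 with cadmium and 8.16 and 13.6 without it. Here am286 also lay below N2 when neither had cadmium. The difference was -5.18 ± 0.461 (adjusted p = 0.00388).

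The gene cdr-1 encodes a gut protein named for its induction by cadmium. Its CPM was 2.06 and 1.80 in am286 with cadmium and 2.62 and 1.48 without it, against 108.0 and 144.3 in N2 with cadmium and 1.18 and 0.949 without it. Its difference of -6.98 ± 0.405 was the largest in size among the 18 (adjusted p = 5.87e-06). Of the other 5 tested genes of the CDR family, named for sequence likeness to it, 0 passed: their values ran up to 0.07, and cdr-2 and hrg-2 had -0.35 ± 0.32 and -1.295 ± 0.683.

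Of the zinc transporter genes cdf-2 passed. CDF-2 stores zinc in granules of gut cells, and cdf-2 had 3.63 and 3.15 CPM in am286 with cadmium and 3.36 and 3.22 without it, against 15.3 and 17.9 in N2 with cadmium and 2.96 and 3.27 without it. All 6 libraries other than N2 with cadmium lay within 2.96 to 3.63 CPM. Its difference was -2.37 ± 0.318 (adjusted p = 0.0134). TTM-1 exports zinc from gut cells. For ttm-1 the 6 libraries other than N2 with cadmium lay at 26.0 to 26.9 CPM, and N2 with cadmium at 44.3 and 53.96, but the difference of -0.93 ± 0.23 did not pass (adjusted p = 0.662). Another exporter gene, PDB1.1, had -0.82 ± 0.25 and did not pass either. Over the 8 genes of the CDF exporter family 1 passed and the median difference was -0.27. That median was -0.43 without am286 replicate 1 lacking cadmium and -0.13 with the median level of sperm markers in each library as a covariate. Over the 14 genes of the ZIP importers, which carry zinc into the cytoplasm, 0 passed, with a range of -0.77 to 0.17.

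Of the 18 genes 4 encode cytochrome P450 enzymes, which oxidise lipids and foreign compounds. For cyp-13A4 (chromosome II, 9795848 to 9797740) the CPM was 0.61 and 0.773 in am286 with cadmium and 0.742 and 0.71 without it, against 11.8 and 19.7 in N2 with cadmium and 0.463 and 0.332 without it. Its difference was -5.36 ± 0.555 (adjusted p = 0.00167). The nearby gene cyp-13A7 (chromosome II, 9803620 to 9805510) had 0.578 and 0.206 CPM in am286 with cadmium and 0.742 and 0.765 without it, against 6.97 and 9.001 in N2 with cadmium and 0.428 and 0.285 without it, and a difference of -5.26 ± 0.62 (adjusted p = 0.00388). The am286 values of both genes rest on 4 to 19 counts a library. Related P450 genes can share reads, and how such reads were counted is not known.

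On the X chromosome cyp-14A4 had 0.643 and 0.619 CPM in am286 with cadmium and 0.664 and 0.819 without it, against 12.5 and 16.39 in N2 with cadmium and 0.677 and 1.09 without it. Its difference was -4.26 ± 0.491 (adjusted p = 0.00388). The fourth, cyp-33C7, was the weakest: 5.59 and 4.49 CPM in am286 with cadmium and 4.45 and 4.48 without it, against 13.6 and 17.02 in N2 with cadmium and 3.64 and 2.89 without it. Its difference of -2.04 ± 0.334 (adjusted p = 0.0418) passed in 6 of 18 alternative analyses.

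The P450 family as a whole leaned the same way. Of 64 tested P450 genes 4 passed and all 4 were negative. The median difference was -0.44 over the family, against 0.03 over all genes, and 58 of 64 values (90.6%) were below 0, against 45.1% of all genes. Other lists without a call also leaned this way: 16 of 17 hypodermis and moulting markers (94.1%), 52 of 63 hedgehog-related and patched-related genes (82.5%) and 27 of 35 short-chain dehydrogenase and flavin monooxygenase genes (77.1%) were below 0, with medians of -0.29, -0.29 and -0.28. The hedgehog-related median was -0.06 without N2 cadmium replicate 1, -0.56 without N2 cadmium replicate 2 and -0.06 with the sperm covariate. The short-chain dehydrogenase median was -0.17 without am286 cadmium replicate 2 and -0.14 with the covariate. In 28 of the 64, or 43.8%, each of the 4 possible cadmium-minus-control differences in am286 lay below each of the 4 in N2, which was so for 6.54% of all genes. In none of the 64 did they lie above, against 6.03% of all genes. All 10 cyp-13A, all 5 cyp-14A, all 8 cyp-33C and all 5 cyp-35A genes tested were below 0, with medians of -1.04, -0.74, -0.56 and -0.45. The 3 cyp-31A genes were not, and cyp-31A2, the most abundant P450 gene, had 0.00 ± 0.236. The median of the P450 family stayed below 0 in all 18 alternatives, between -0.67 and -0.36 where 1 library was left out. It was -0.30 with the sperm covariate.

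UDP-glycosyltransferases are conjugating enzymes that attach sugars to lipophilic compounds. For ugt-1 the CPM was 7.49 and 7.06 in am286 with cadmium and 9.73 and 11.1 without it, against 15.9 and 18.5 in N2 with cadmium and 6.35 and 5.88 without it. For ugt-62, the most abundant gene of the family, it was 88.1 and 81.1 in am286 with cadmium and 116.9 and 132.5 without it, against 228.5 and 231.2 in N2 with cadmium and 144.0 and 137.1 without it. In both genes the libraries with cadmium were the lower ones in am286 and the higher ones in N2. The differences were -2.01 ± 0.285 (adjusted p = 0.0188) for ugt-1 and -1.27 ± 0.187 (adjusted p = 0.0203) for ugt-62. The part of ugt-62 that lies in N2, 0.71 ± 0.132, did not pass by itself (adjusted p = 0.0519), and the part in am286 was -0.56 (adjusted p = 0.893). Of 62 tested UDP-glycosyltransferase genes 2 passed, where 0.107% of all genes passed below 0. In the family 51 (82.3%) were below 0, against 45.1% of all genes, and in 17 (27.4%) the am286 differences lay below those of N2 without overlap, against 6.54% of all genes. The median of the family was -0.25, and -0.11 with the sperm covariate.

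Glutathione S-transferases join glutathione to toxic compounds, and of 41 tested genes 0 passed. For gst-38 the cadmium effect passed in each genotype by itself. It had 30.7 and 18.7 CPM in am286 with cadmium and 6.91 and 6.06 without it, against 42.8 and 57.1 in N2 with cadmium and 3.74 and 4.70 without it. Cadmium raised it in am286 by 1.93 (adjusted p = 0.0454) and in N2 by 3.57 (adjusted p = 6.73e-05). The difference, -1.64 ± 0.365, did not pass (adjusted p = 0.406). For gst-33 the CPM was 1.25 and 0.98 in am286 with cadmium and 1.21 and 0.765 without it, against 5.67 and 5.15 in N2 with cadmium and 1.39 and 0.617 without it, and its difference of -2.22 ± 0.554 did not pass (adjusted p = 0.681). Among 48 ABC transporter genes, whose proteins pump compounds across membranes, 0 passed. The 2 P-glycoprotein genes pgp-1 and pgp-9 came closest among those below 0, at -1.26 ± 0.248 (adjusted p = 0.183) and -1.22 ± 0.246 (adjusted p = 0.195).

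**Figure D2:**
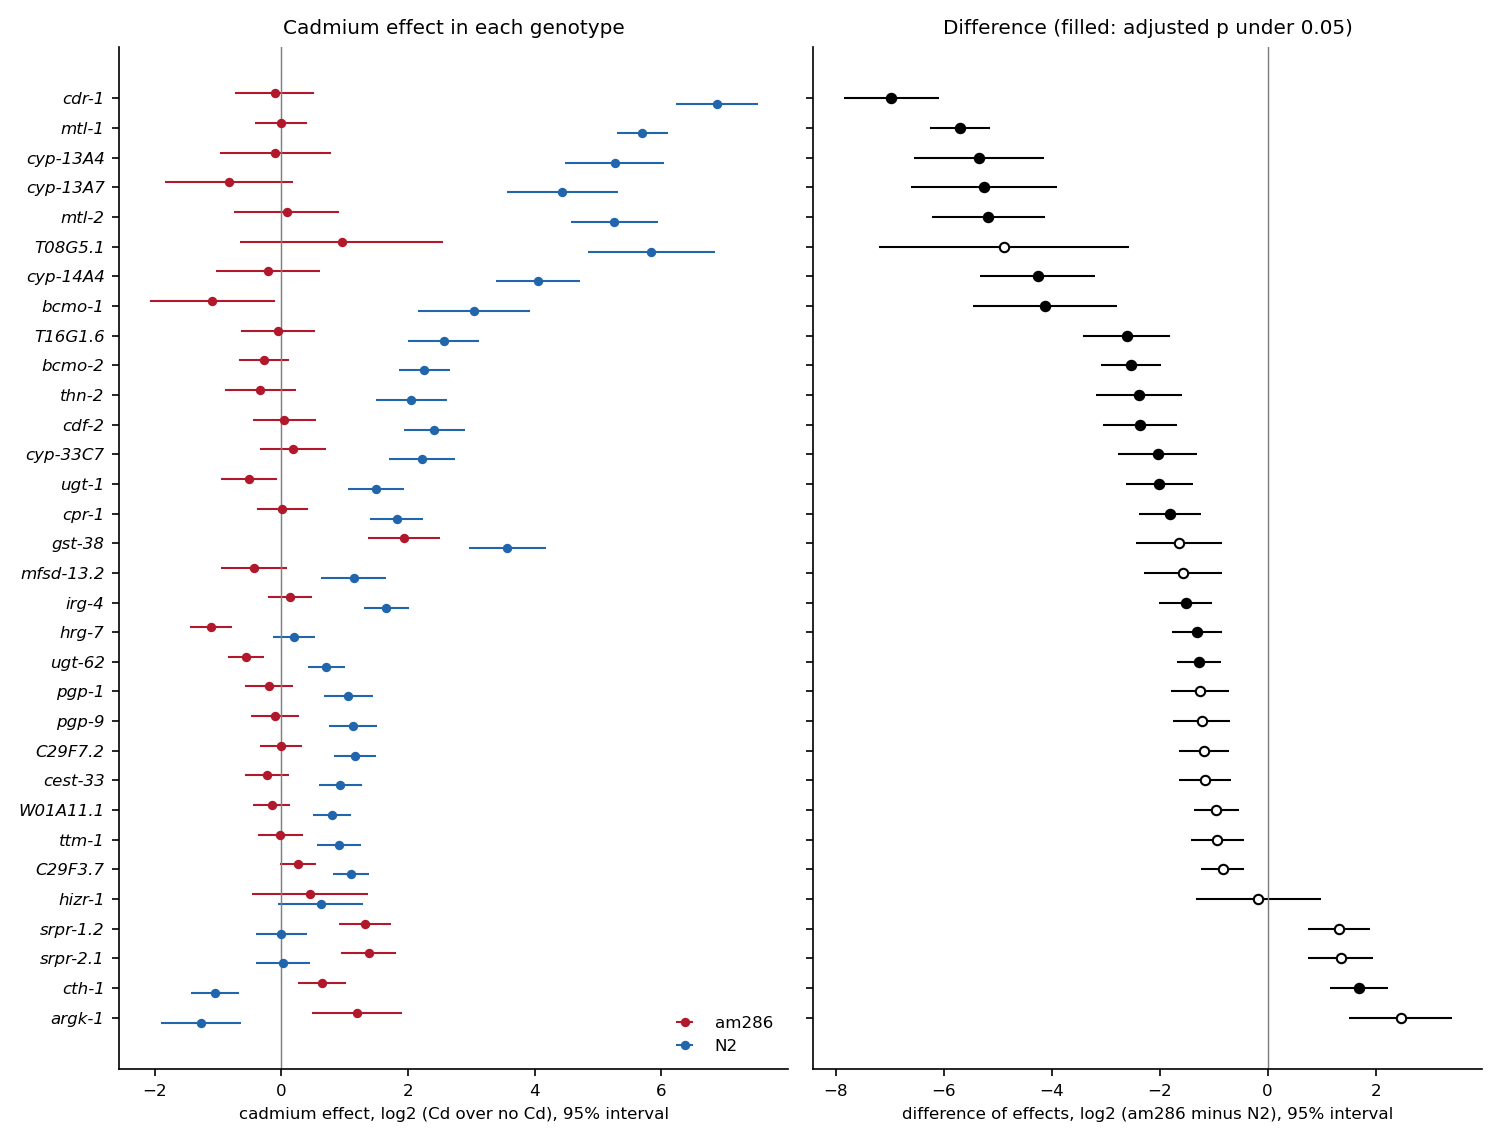
Cadmium effect in am286 (upper, red) and N2 (lower, blue) at left and their difference at right, in log2 with 95% intervals, for the 18 genes that passed (filled), the next 12 by p and the remaining genes of the high zinc response (open). Among genes with a negative difference the am286 effect sits near 0 for most; among the 17 that passed its interval leaves out 0 for hrg-7, bcmo-1, ugt-62 and ugt-1, and below the threshold gst-38 has an am286 effect of 1.93.

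Both carotenoid oxygenase genes, homologues of enzymes that cleave beta-carotene, had a negative difference. The gene bcmo-2 had 9.09 and 8.97 CPM in am286 with cadmium and 10.3 and 11.7 without it, against 42.4 and 42.8 in N2 with cadmium and 9.38 and 8.40 without it. Its difference was -2.54 ± 0.258 (adjusted p = 0.00167). The gene bcmo-1 was much rarer, with 9 and 6 counts in am286 with cadmium and 16 and 12 without it, against 63 and 52 in N2 with cadmium and 6 and 7 without it. Its am286 values were lower with cadmium than without, and the difference was -4.13 ± 0.615 (adjusted p = 0.0203).

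The gut protease gene cpr-1 and 2 genes of the infection response list also passed below 0. CPR-1 is a cathepsin B-like protease of the gut. The CPM of cpr-1, the most abundant of the 18 genes, was 406.1 and 371.7 in am286 with cadmium and 422.0 and 349.1 without it, against 910.1 and 795.9 in N2 with cadmium and 281.5 and 201.4 without it. The 4 am286 libraries overlapped, while those of N2 separated by cadmium. The difference was -1.81 ± 0.265 (adjusted p = 0.0203). The other 6 tested cathepsin B-like genes did not pass, and all 7 lay below 0.

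The gene irg-4 is induced by some bacterial infections. Its CPM was 64.2 and 51.4 in am286 with cadmium and 55.2 and 49.9 without it, against 117.8 and 98.2 in N2 with cadmium and 33.1 and 35.5 without it, with a difference of -1.52 ± 0.226 (adjusted p = 0.0203). For thn-2, of the thaumatin-like family, the CPM was 8.42 and 8.45 in am286 with cadmium and 13.8 and 7.32 without it, against 41.8 and 45.5 in N2 with cadmium and 9.87 and 11.2 without it. Its difference was -2.38 ± 0.363 (adjusted p = 0.0279). T16G1.6 had 3.69 and 2.22 CPM in am286 with cadmium and 3.16 and 3.06 without it, against 16.3 and 16.52 in N2 with cadmium and 2.89 and 2.66 without it, and a difference of -2.62 ± 0.369 (adjusted p = 0.0188). In these 3 genes the N2 cadmium libraries lay above the other 6, and for irg-4 the N2 libraries without cadmium also lay below all 4 of am286. Infection response and thaumatin genes passed in 2 of 13 cases, where 0.114% of all genes passed, and lysozyme genes in 0 of 11. The list of 13 as a whole did not lean clearly: 7 (53.8%) were below 0, against 45.1% of all genes, with a median of -0.08.

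The lysozyme gene ilys-2 could not be resolved at this depth. It had 5 and 0 counts in am286 with cadmium and 3 and 0 without it, against 155 and 115 in N2 with cadmium and 4 and 3 without it. Its interaction did not pass (adjusted p = 1.0). T08G5.1, which begins 122 bases from mtl-2 on the other strand, had few counts outside N2 with cadmium. It had 13 and 1 counts in am286 with cadmium and 4 and 2 without it, against 327 and 284 in N2 with cadmium and 6 and 4 without it, and its interaction did not pass (adjusted p = 0.338). Its difference was -4.89 ± 1.07, and it passed in 4 of 18 alternatives, DESeq2 among them. For ilys-2 no fold is given, since both am286 groups are at or near the floor. The T08G5.1 difference also rests on am286 counts near the floor, and ran from -7.15 to -4.26 over the alternatives.

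The 17 markers of intestine summed to 7423 and 7523 CPM in am286 with cadmium and 7173 and 6857 without it, against 9870 and 8415 in N2 with cadmium and 7852 and 7523 without it. The N2 cadmium sums were the highest, and they include cpr-1 and mtl-2, which passed. These had 795.9 and 414.4 CPM in N2 cadmium replicate 2, against 201.4 and 13.6 in N2 replicate 2 lacking cadmium. The lead of N2 cadmium replicate 2 over the N2 libraries without cadmium rests on these 2 genes. The other 15 markers held 0 calls, and the median of the 17 was -0.11. It was above 0 without N2 cadmium replicate 1, at 0.05. The gut marker ges-1 had -0.57 ± 0.252 and the gut master regulator gene elt-2 had -0.46 ± 0.288. Less RNA from a tissue and fewer of its cells cannot be told apart in whole animals. The part of this in the results was not tested.

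One gene passed in the opposite direction. CTH-1 is a cystathionine gamma-lyase, an enzyme that makes cysteine from cystathionine. On the CPM scale cth-1 (chromosome V, 16100655 to 16102744) had 26.5 and 29.2 in am286 with cadmium and 16.7 and 19.01 without it, against 28.8 and 26.9 in N2 with cadmium and 50.6 and 64.8 without it. With cadmium the genotypes were at the same level, and the separation lay in the cultures without it. The cadmium effect was 0.64 in am286 (adjusted p = 1.0) and -1.05 in N2 (adjusted p = 0.0286), and the difference was 1.69 ± 0.249 (adjusted p = 0.0203). Of the 22 tested genes of cysteine and hydrogen sulfide metabolism the other 21 did not pass. The median of all 22 was 0.04, and its sign changed in 8 of 18 alternatives.

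The gene argk-1 begins 1149 bases beyond the end of cth-1 on the same strand, and its difference did not pass. It spans 16103894 to 16106140 on chromosome V and encodes an arginine kinase, an enzyme that buffers ATP. Its CPM was 4.18 and 5.31 in am286 with cadmium and 1.52 and 2.68 without it, against 8.44 and 6.001 in N2 with cadmium and 14.4 and 20.6 without it. In am286 the higher libraries are those with cadmium, and in N2 those without, and am286 lay below N2 both with and without cadmium. The difference was 2.46 ± 0.434 (adjusted p = 0.0898), and it passed in 4 of 18 alternatives, DESeq2 among them.

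For hrg-7 the departure was in the mutant. HRG-7 is an aspartic protease-like protein that the gut secretes and that signals haem status to other tissues. The CPM of hrg-7 was 33.3 and 36.1 in am286 with cadmium and 76.3 and 73.4 without it, against 82.2 and 67.8 in N2 with cadmium and 60.6 and 70.2 without it. The am286 cadmium libraries lay below all 6 others. Its difference was -1.31 ± 0.214 (adjusted p = 0.0418). The gene body overlaps that of C15C8.7, and no strand setting is known, so reads of the 2 cannot be told apart. The call was among the least firm, passing in 8 of 18 alternatives.

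Some genes that cadmium raised in am286 did not pass as differences. The non-coding RNA gene srpr-2.1 had 496.2 and 504.9 CPM in am286 with cadmium and 215.5 and 169.4 without it, against 351.9 and 278.3 in N2 with cadmium and 257.9 and 363.5 without it. For srpr-1.2, whose body overlaps ckb-2, the values were 81.2 and 98.4 in am286 with cadmium and 38.2 and 33.4 without it, against 53.0 and 55.7 in N2 with cadmium and 44.0 and 64.7 without it. Their differences were 1.36 ± 0.277 (adjusted p = 0.211) and 1.32 ± 0.265 (adjusted p = 0.195). The aspartyl protease gene asp-14, whose body overlaps fah-1, had a cadmium effect of 1.31 ± 0.153 in am286 and 0.52 ± 0.151 in N2. Its N2 values were also higher with cadmium, at 271.8 and 281.3 CPM against 172.6 and 212.0 without it. The asp-14 difference of 0.79 ± 0.214 did not pass (adjusted p = 0.896).

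The 12 genes with the next smallest p did not pass, with adjusted p of 0.0898 to 0.406, and of these 3 were above 0 and 9 below. Among those below 0 were C29F7.2, at -1.18 ± 0.216 (adjusted p = 0.106), the carboxylesterase gene cest-33, at -1.16 ± 0.225 (adjusted p = 0.163), and W01A11.1, at -0.95 ± 0.193 (adjusted p = 0.2). Also there were mfsd-13.2, at -1.57 ± 0.336, and C29F3.7, at -0.83 ± 0.185.

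How large a difference the data could have missed depended on a gene's level. The median SE was 0.756 for the 2824 genes under 1 CPM, 0.437 for the 5272 genes at 1 to 10 CPM, 0.258 for the 5524 at 10 to 100 CPM and 0.218 for the 2087 at 100 to 1000 CPM. The 95% intervals hold for each gene alone, unadjusted for the number of genes, so some can miss a true 2-fold difference. A 95% interval wholly within 1 log2 unit of 0, which does not reach a 2-fold difference, was seen at 7566 genes, or 47.8%. The share was 0.0708%, 23.8%, 79.5% and 88.6% in these classes and 61.3% in the 111 genes above 1000 CPM. The smallest difference that passed was 1.27 in size.

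**Figure D3:**
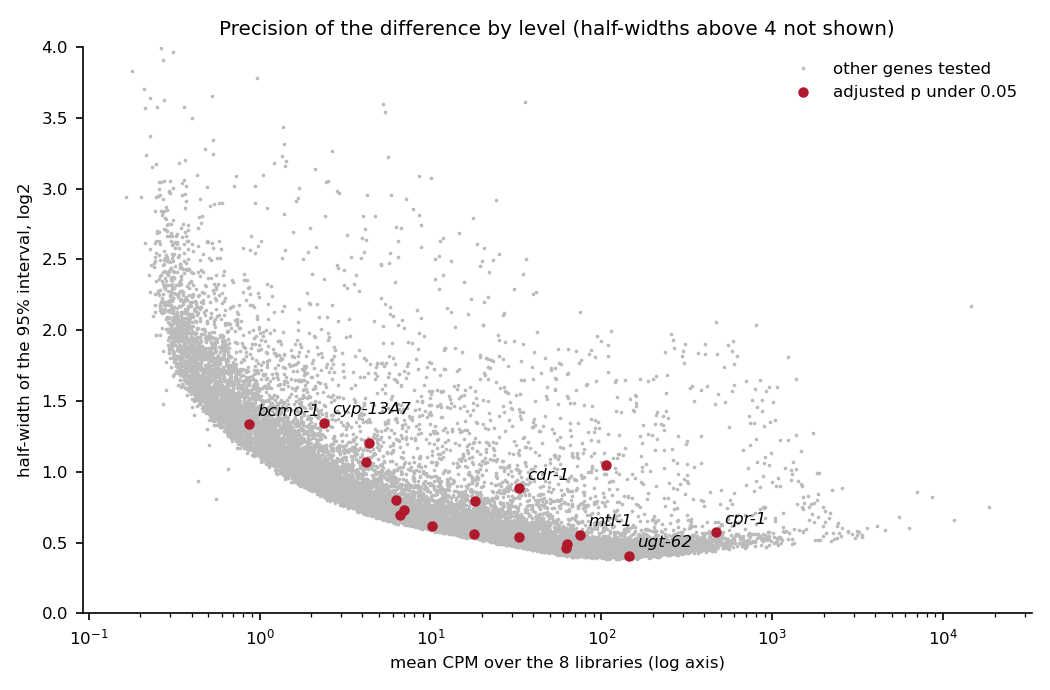
Half-width of the 95% interval of the difference (log2) against mean CPM (log axis) for all 15818 genes; the 18 that passed are red, and 14 half-widths above 4 are not shown. Intervals narrow with level, and bcmo-1 and cyp-13A7 passed with wide intervals because their differences are large.

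Genes of general stress defence were bounded closely, as were most genes of such levels. Of all genes, 79.5% at 10 to 100 CPM, 88.6% at 100 to 1000 and 61.3% above 1000 had intervals within 1 log2 unit. Of 20 abundant chaperone genes of the cytosol, endoplasmic reticulum and mitochondria, all 20 had intervals within 1 log2 unit of 0, and 0 passed. Their values ran from -0.08 to 0.28. The cytosolic chaperone gene hsp-90 had 0.06 ± 0.271 and the mitochondrial chaperone gene hsp-60 had 0.28 ± 0.236. All 33 proteasome genes were bounded in the same way, from -0.01 to 0.39. So were all 5 genes of glutathione and phytochelatin synthesis, the peptides that chelate cadmium outside the metallothioneins: gcs-1, for the rate-limiting enzyme of glutathione synthesis, had -0.04 ± 0.214, the phytochelatin synthase gene pcs-1 -0.17 ± 0.257, and hmt-1, for the phytochelatin transporter, 0.08 ± 0.214. The direction of small medians depended on scaling: those of the chaperones and proteasome were 0.03 and 0.09, and -0.13 and -0.07 with libraries scaled to their total only. That scaling moved the median of all genes to -0.12, against 0.03 with TMM.

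The inducible heat shock genes were less closely bounded. Of 11 tested 0 passed, and 3 had intervals within 1 log2 unit. The gene hsp-70 had 54.7 and 49.3 CPM in am286 with cadmium and 74.6 and 68.7 without it, against 78.1 and 51.8 in N2 with cadmium and 44.3 and 42.3 without it, and a difference of -1.05 ± 0.259 (adjusted p = 0.662). Small heat shock gene hsp-16.2 had -1.31 ± 0.374 and F44E5.5, of the Hsp70 family, had -1.70 ± 0.43, and these did not pass. In the 3 genes the am286 values were lower with cadmium and those of N2 were higher with it. In each, N2 cadmium replicate 1 was above N2 cadmium replicate 2. The CPM of these 2 libraries was 57.1 and 32.15 for hsp-16.2 and 3.31 and 2.42 for F44E5.5. The body of hsp-70 overlaps uggt-2. Of 20 antioxidant genes 0 passed and 11 were bounded within 1 log2 unit. The peroxiredoxin gene prdx-2 had 0.26 ± 0.257 and the catalase gene ctl-2 had -0.36 ± 0.227.

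Partners of HIZR-1 did not differ detectably. Of 9 tested genes for partners and stress or gut regulators 0 passed, and 7 had intervals within 1 log2 unit. The gut regulator gene elt-2 was not among the 7, at -0.46 ± 0.288 with an interval of -1.09 to 0.17. The stress regulator gene skn-1 had 0.34 ± 0.185 with an interval of -0.06 to 0.74, and mdt-15, named for its role after its values were seen, had 0.23 ± 0.186 with an interval of -0.17 to 0.64. Among 189 nuclear hormone receptor genes 0 passed, 138 (73.0%) were below 0, against 45.1% of all genes, and the median was -0.18. That median was -0.06 without N2 cadmium replicate 1, -0.27 without N2 cadmium replicate 2 and 0.02 with the sperm covariate. Of the iron and manganese genes 0 of 7 passed, with ferritin genes ftn-1 at -1.1008 ± 0.484 and ftn-2 at -0.28 ± 0.272. Of the haem genes hrg-7 alone passed among 7, and hrg-1 and hrg-4, for haem importers, had -0.91 ± 0.297 and -0.90 ± 0.429.

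Markers of sperm had the highest median of any list, and 0 of 80 passed. Their summed level was 630.3 and 668.0 CPM in am286 with cadmium and 829.8 and 511.1 without it, against 199.1 and 295.1 in N2 with cadmium and 305.9 and 595.6 without it. Every am286 library except replicate 2 without cadmium lay above every N2 library, and the 2 N2 libraries without cadmium lay far apart. The median difference was 1.48, and 75 of 80 values were above 0. It ran from 0.67 without N2 replicate 2 lacking cadmium to 2.29 without N2 cadmium replicate 2. Some members have near-identical copies, so counts of single sperm genes are uncertain. With the median sperm level of each library as a covariate, 13 of the 18 genes still passed, and cpr-1, ugt-62, irg-4, hrg-7 and cyp-33C7 did not. Their differences were about as large with it, at -1.59 for cpr-1, -1.18 for ugt-62, -1.50 for irg-4, -1.34 for hrg-7 and -2.03 for cyp-33C7, with adjusted p of 0.0582 to 0.164 by edgeR.

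Ribosomal protein genes and histone genes also had medians above 0 without calls. All 82 ribosomal protein genes were above 0, with a median of 0.52, and 38 of 41 histone genes were, with a median of 0.71. These medians were 1.05 and 1.37 without am286 replicate 1 lacking cadmium, 0.08 and 0.07 without N2 replicate 2 lacking cadmium, and -0.23 and -0.27 with the sperm covariate. Ribosomal genes summed to 71550 CPM in am286 replicate 2 without cadmium and to 124000 in N2 replicate 2 without it, the ends of the range, with 78760 to 112500 in the other 6. Antimicrobial peptide genes (55 tested, median 0.30) and neuropeptide and insulin-like genes (median 0.05) held 0 calls. Both medians changed sign without am286 replicate 2 lacking cadmium, to -0.19 and -0.27. Cuticle collagen genes held 0 calls among 148 with a median of -0.06, and C-type lectin genes 0 among 117 with a median of -0.03. Without N2 cadmium replicate 1 these medians were 0.29 and 0.12. Markers of neurons (19 genes, median -0.24), embryos (10, -0.12), muscle (18, 0.03), oocytes (25, 0.17), yolk (6, 0.24) and hypodermis and moulting (17, -0.29) held 0 calls each. Without N2 cadmium replicate 1 the medians were -0.03 for neurons, 0.05 for embryos and 0.04 for hypodermis, and with the sperm covariate 0.21 for neurons and 0.17 for hypodermis. The yolk median was -0.08 without am286 cadmium replicate 2, and that of muscle changed sign in 10 of 18 alternatives.

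**Figure D4:**
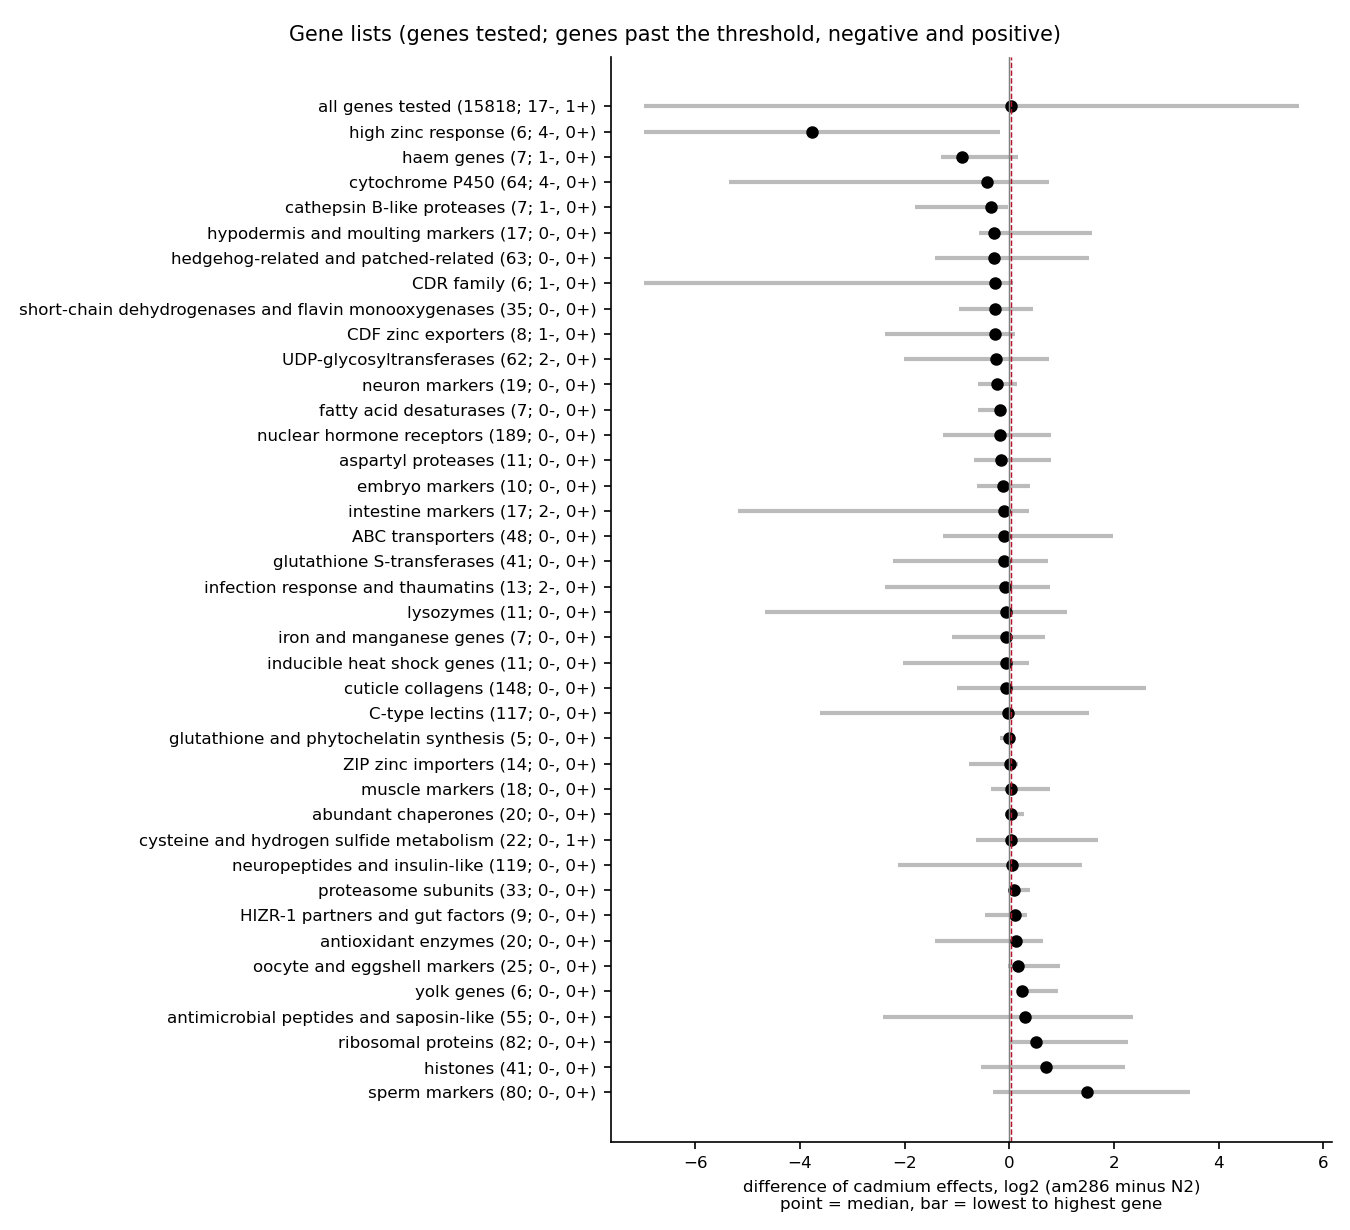
Difference of cadmium effects (log2) by gene list of 5 or more tested genes: point, median; grey bar, lowest to highest gene; in brackets, genes tested and genes past the threshold in each direction. The dashed line is the median of all 15818 genes, 0.03. The high zinc response lies far below it, haem and P450 genes less so, and sperm markers above it with 0 calls.

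Leaving out 1 library at a time leaves 1 group with a single sample, which is then assumed to vary like the other groups. Over 144 such values the 18 differences were 0.774 to 1.19 times those from all libraries, the lowest and the highest being thn-2 and cyp-13A7. Of the 18 genes 4 passed in every one of the 8 fits: mtl-1, cdr-1, bcmo-2 and cyp-13A4. Without N2 cadmium replicate 2 those 4 were the only calls, and without replicate 1 cyp-14A4 was added. Without am286 cadmium replicate 1 or 2, 8 and 7 of the 18 passed, and without either am286 library lacking cadmium 14 and 12. The gene cth-1 passed without either N2 library lacking cadmium and in none of the other 6 fits. Without N2 replicate 1 lacking cadmium all 18 passed and the positive calls numbered 50, among them 8 sperm markers. All 18 kept their sign in all 18 alternatives, which reuse the libraries that picked the 18, so a change of sign was unlikely.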

How the data were processed

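RNA of whole animals was extracted with Trizol and a column and depleted of ribosomal RNA, per the labels' protocols. The submitters' processing notes name the build WBcel235 and the tools featureCounts 1.45, Subread and STAR 2.0.4b. The release of the annotation, strand setting and treatment of multiply matching reads are not given in the sources used here. Per the file headers, a library's file has a deposited count column with the authors' raw reads for 46726 genes. Its deposited CPM values are the authors' counts scaled to the library total, and the deposited RPKM column is that CPM per kilobase; both were recomputed from the counts to within 1e-06. Only counts were tested. Gene CPM in the text uses TMM-scaled library sizes, and the floor uses library totals.

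All 8 libraries entered 1 edgeR 4.0.16 quasi-likelihood fit (R 4.3.3; filterByExpr, minimum count 10, minimum total 15; robust dispersion; 4 group means). The SE is the log2 difference divided by the square root of F, and intervals use 6.14 to 12.3 degrees of freedom, so they cover the spread between pools; the floor of 3 counts covers counting error only. In a simulation of the interaction over 15509 genes, 95.7% of genes set to -4, 64.6% of those set to -2, 14.6% of those set to -1 and 82% of those set to 2 were called. Each simulated gene had the same mean level in all groups, and only the am286 cadmium group was changed. Spread followed the trend over level, not each gene's own spread. The simulation made 128 calls, against 18 in the data, which eases the adjusted threshold, so these shares may overstate detection in the data. The closest 2 libraries had a chi-square per degree of freedom of 8.57, so none was counted as a repeat. They were am286 cadmium replicate 2 and am286 replicate 1 lacking cadmium, of different groups. The 2 libraries of a group had 22.01 to 55.89, so on this measure libraries did not sort by group. Alternatives were DESeq2 1.42.0, limma-voom 3.58.1, other scalings and filters, each library left out, a block and a sperm covariate.

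Symbols came from a table of gene names and a WBcel235 annotation of another release (61.72% of matched identifiers had equal coordinates); coordinates are those of the files. Of each list only tested genes are counted, and 11 listed symbols had no match. Genes were named by rule: the high zinc response, all genes that passed, the next 12 by p and, of each list, the 3 with the smallest p and the most abundant. The members and lists were chosen with earlier results of these data known.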

Additional observations from a re-analysis of the deposited data

Results flagged for a closer look

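The cadmium effect differed between am286 and N2 by the interaction test itself at 18 genes. The log2 differences, am286 minus N2, were -6.98 for cdr-1, -5.71 for mtl-1, -2.37 for cdf-2 and -5.18 for mtl-2. They were -5.36 for cyp-13A4, -5.26 for cyp-13A7, -4.26 for cyp-14A4 and -2.04 for cyp-33C7. The values were -2.54 for bcmo-2, -4.13 for bcmo-1, -2.01 for ugt-1 and -1.27 for ugt-62. They were -1.81 for cpr-1, -1.52 for irg-4, -2.38 for thn-2, -2.62 for T16G1.6 and -1.31 for hrg-7. The value for cth-1 was 1.69. With 2 samples a group, single outlying samples were not looked for.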

How the results depend on the processing

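Against 17 negative and 1 positive calls, 18 alternatives made 4 to 35 and 0 to 55, which held 4 to 17 of the 17 and 0 to 1 of the 1. With no filter on low counts 35 and 55 were called among 28652 genes, 7 of the positive being sperm markers. DESeq2 called 24 and 4, all 18 among them. Leaving out 1 library gave 4 to 21 negative and 0 to 50 positive calls, with 253 to 1420 unadjusted p-values under 0.05, against 513 in all. No sign of the 18 changed, in fits that reuse the libraries that picked them. Over 162 named genes, 73 of 2910 values lost a call, 46 gained one, 98 changed sign without a call and 0 reversed a call. Intervals within 1 log2 unit of 0 numbered 5636 to 8046. The replicate block left 14 negative calls and 1 positive, without thn-2, hrg-7 and cyp-33C7. The labels give no shared batch, but replicate 1 had the higher total count in every group. Same-numbered samples deviated together by a correlation of -0.431 to 0.42 between groups. The numbers were not taken to pair the samples, and the block was kept as an alternative. Where a call was lost the cause was not tested. Differences near 1 in log2 were rarely detectable at 2 libraries a group.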

Other observations

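The genes that passed were not spread evenly over the chromosomes. Chromosome V held 9 of the 18, and 19.7% of the genes tested. Chromosome I held 0. Among the 18 genes, the 12 next to them and the remaining genes of the high zinc response, 4 pairs lay within 20 kb of each other: cyp-13A4 and cyp-13A7 with 5879 bases between them, mtl-2 and T08G5.1 with 122, gst-38 and cdr-1 with 5281, and cth-1 and argk-1 with 1149. Within each pair the differences have the same sign. Most genes of this pool were below 0, among them 17 of the 18 that passed, so equal signs say little about position. These pairs were chosen with the values known.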
